A study of Rattus norvegicus with 56 samples.

Results

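The cytosolic ribosomal proteins were described here in primary rat hippocampal neuron cultures stimulated with repetitive transcranial magnetic stimulation (rTMS), in which pulses from a coil induce current in nearby cells. A gene was a member if its rat symbol begins with Rpl, Rps or Rplp and a number, if it is not a ribosomal S6 kinase gene, and if its symbol does not end in the letter l followed by a number, as the names of many retrogene-like copies do. The rule kept 78 of the 16581 genes that a RefSeq accession on the array could be matched to, 45 of the large subunit and its stalk and 33 of the small subunit, and left out 13 copies such as Rpl22l1 and Rpl17l5. Each gene was read from its brightest probe among 188, and 26 of the genes had 1 probe only. The rule used no measured change between samples.

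The cultures came from embryonic Sprague Dawley hippocampi (E18) and were placed on the coil for 1 Hz stimulation, intermittent theta burst stimulation (iTBS) or sham, in which the coil was held away from the dish, and RNA was taken 0, 2, 8, 24 or 48 h later. Untreated control dishes were taken at 0 h only. No allele or drug was involved, all groups shared strain, region and culture medium, and the cells are a dissociated embryonic culture that also carried glial transcripts. Of 56 one-colour arrays in 16 groups, 55 were used, because the grid of replicate 2 of 1 Hz at 2 h was misplaced. That left 2 arrays in this group and 3 or 4 in each of the others. The labels do not say whether replicates were separate cultures, so p-values measure the spread between these samples, which may be technical.

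The sample numbers in the descriptions fall into 4 runs, called series A, B, C and D here: 3 blocks of consecutive numbers that repeat the order of arms and times, and a further set whose numbers carry the letter D. They held 11, 12, 17 and 15 arrays. Not every group held an array of each series, so some comparisons of groups also set different series against each other. Series A, B and C lay on different slides, and series D was spread over all 7. What separated the series, whether dissection, culture or RNA handling, is not given in the sources used here.

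Cytosolic ribosomes are built from ribosomal RNA and about as many different proteins as there are members here, which are needed in near equal amounts. Their mRNAs typically begin with a run of pyrimidines at the 5′ end, the TOP element, through which mTORC1 signalling controls their translation, and in neurons they are found in dendrites as well as in the soma. They are among the most abundant mRNAs of any cell, and most of their probes sit near the top of an array's range.

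Start-site sequences are shown because the pyrimidine run is what the members share that the rule did not use. RefSeq (GRCr8) start-site entries were found for 61 of the 78 genes, and not for Rps25, Rps20, Rpl23a and others; the array files name rn4, so only sequence and not array coordinates were taken from it. A run of at least 8 consecutive C or T, read on the gene's own strand and overlapping the stretch from 10 bases before to 15 bases after the annotated start, was present in 45 of the 61 (73.8%) and in 16.5% of 27457 genes. The median longest run was 10 bases in the members and 5 in all genes. Each line gives 10 bases before and 20 after the start, with the longest pyrimidine run of the window in capitals, first for 4 members that hold a run (Rplp0, Rplp1, Rpl10 and Rpl22), then for 2 that do not at this start (Rpl18 and Rps6), then for 2 paralogue pairs (Rpl3 with Rpl3l, and Rps27 with Rps27l).
Rplp0, chr12:46718371-46718400, minus strand: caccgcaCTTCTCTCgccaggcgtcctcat
Rplp1, chr8:71290853-71290882, minus strand: cgcatgtgaTCCTTTCCTCagctgccgcca
Rpl10, chrX:157205840-157205869, plus strand: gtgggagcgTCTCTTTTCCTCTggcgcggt
Rpl22, chr5:168117951-168117980, plus strand: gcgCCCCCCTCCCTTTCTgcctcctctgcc
Rpl18, chr1:105325260-105325289, plus strand: aCCTggtctagcaggaggcgccatcatggt
Rps6, chr5:106420521-106420550, minus strand: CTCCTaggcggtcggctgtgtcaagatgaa
Rpl3, chr7:113507971-113508000, minus strand: gcctgctcgaTCTCTatcggcggcgtgtgg
Rpl3l, chr10:14258436-14258465, plus strand: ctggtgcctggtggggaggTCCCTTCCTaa
Rps27, chr2:177964587-177964616, minus strand: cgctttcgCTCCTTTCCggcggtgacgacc
Rps27l, chr8:76443648-76443677, plus strand: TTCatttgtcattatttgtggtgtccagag
Rps27 thus holds a run across its annotated start and its paralogue Rps27l does not. In the other pair Rpl3l holds one, which begins 9 bases after the start, and Rpl3 does not. The longest run of all, 24 bases, belongs to Rpl7a, begins at position -30 and ends before the annotated start. A counted run may thus lie wholly before or after the start, so the count is not a count of TOP elements. A missing run says only that these letters are not in this window, and the annotated start may not be the one used in these cells.

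Levels are given on a scaled log2 signal, the z-score of log2 processed signal within each array multiplied by the median array SD of 4.06, so that 0 marks the average over the probes of an array. The brightest members were Rpl41 (mean level 11.71), the smallest protein of the large subunit, and 2 stalk proteins, Rplp0 (11.27) and Rplp1 (11.07), which hold translation factors on the ribosome. The dimmest were 4 copies or paralogues. Rps7-ps20, a pseudogene, was above background on no array (level -4.83) and was the 1 member not tested, so 77 were. Rps4x-ps1, another pseudogene (-4.25), was above background on 5 of 55 arrays, Rpl3l, the muscle paralogue of Rpl3, on 42 (-2.0), and Rps4y2, a copy of Rps4x, had a level of -0.22. Levels of different genes come from different probes and are not compared further.

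**Figure D1:**
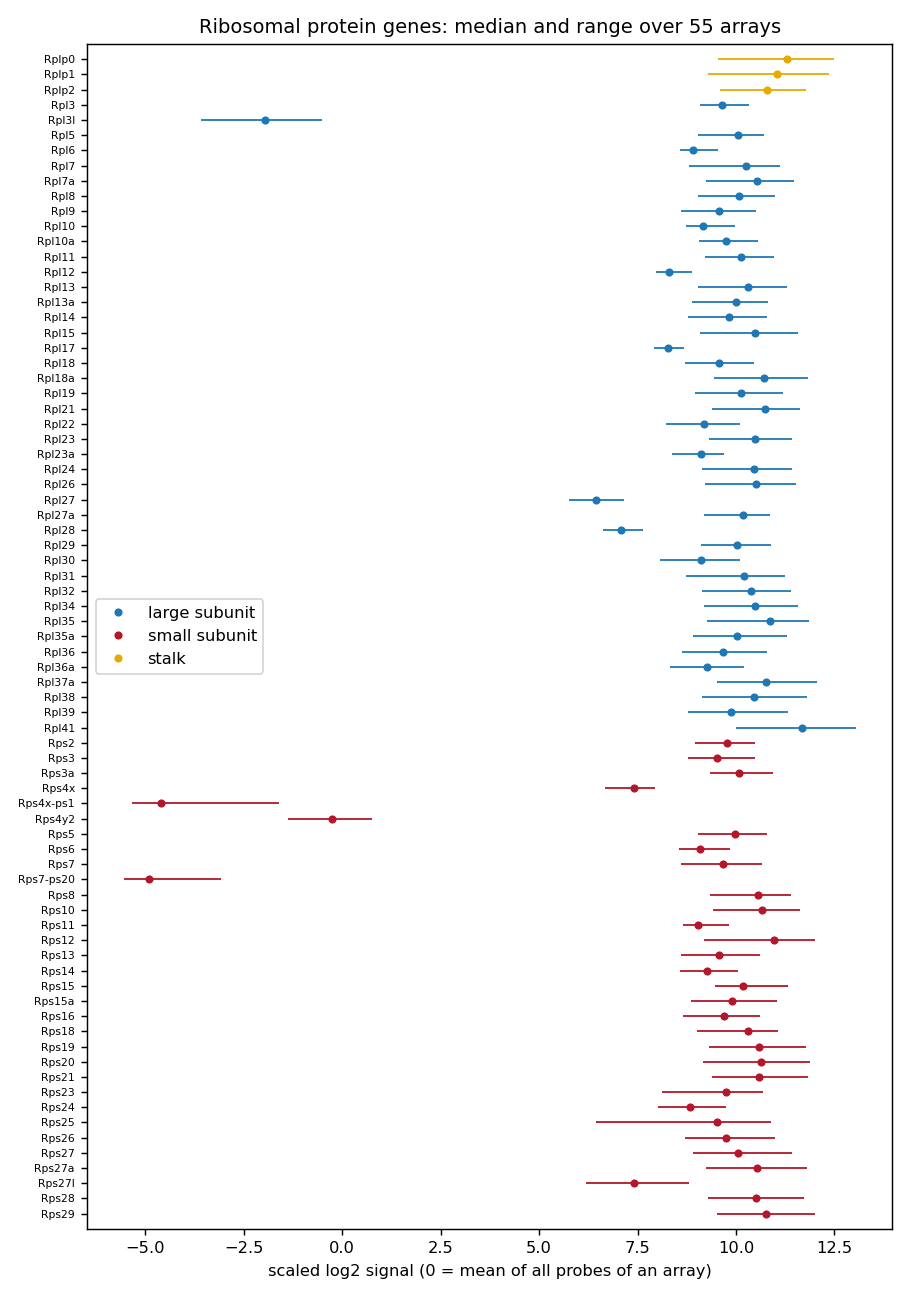
Scaled log2 signal of 77 of the 78 ribosomal protein genes (vertical axis, ordered by subunit and number) over 55 arrays; the point is the median and the line runs from the lowest to the highest array. Nearly all members lie far above the array mean at 0, while Rpl3l, Rps4y2, Rps4x-ps1 and Rps7-ps20 lie below it, and Rps25 has a long line to the left that comes from single arrays.

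Paralogue partners named for comparison could not all be read: Rpl10l, Rpl39l and Rpl36al, and the binding partner gene Rps19bp1, had no matched probe. The spread over arrays within a group was widest for Rps4x-ps1 (SD 0.80), Rps25 (0.68), a small-subunit protein needed for some kinds of internal initiation, and Rps27l (0.64), a paralogue of Rps27 that p53 induces. It was narrowest for Rpl12 (0.17), which sits at the base of the stalk, and for Rpl6 and Rpl17 (0.18 each).

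Most members moved together from array to array on this scale, and Rpl3l, Rps4y2 and Rps4x-ps1 did not, with mean correlations with the other members of -0.60, -0.47 and -0.39. These lie below the array mean, unlike the other tested members. The median over members of an array's deviation from the gene means ran from -0.97 to 0.90. The same median over 664 other tested probes of the same brightness (levels 8.32 to 10.73, the 10th to 90th percentile of the members) ran from -0.60 to 0.73, and the 2 medians correlated across the 55 arrays at r = 0.93 (Spearman's rho = 0.93). Both come from the same arrays and the same scaling, so this is a description. The member median was also lower on brighter arrays (r = -0.77 with log2 of the array's 75th percentile signal, rho = -0.77, n = 55), and that percentile ranged from 1896 to 18416.

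After quantile normalization, which gives all arrays the same distribution, the member median ran from -0.47 to 0.11 only and that of the other bright probes from -0.04 to 0.04. The members are themselves part of the bright end of that distribution, so quantile normalization can take out part of a joint shift of the members. On this scale the member median was higher on brighter arrays (r = 0.36 with log2 of the 75th percentile signal, rho = 0.51). A relation with array brightness thus remained, with the opposite sign. Some shared movement was left: the mean pairwise correlation of residuals was 0.24 among members against 0.01 among the other bright probes, where on the z scale it was 0.70 against 0.46. For Rpl3l, Rps4y2 and Rps4x-ps1 quantile normalization left mean correlations with the other members of -0.14, 0.06 and -0.09. The lowest on that scale was that of Rps2 (-0.24). Of 102 other probes of 52 genes, 93 correlated with the brightest probe at over 0.5 across the arrays, with a median of 0.90. Residuals of different members already correlated at 0.70 on the z scale, so passing 0.5 does not show agreement particular to a gene. Of the 102, 100 shared the sign of the brightest probe in A minus B and 93 in D against the rest. For 1, both probes were called in A against B with opposite signs. The member medians below are therefore given beside the probes of the same brightness and after quantile normalization, and the part of array brightness in the differences was not tested. In bulk RNA, fewer cells of a type and less RNA per cell cannot be told apart.

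**Figure D2:**
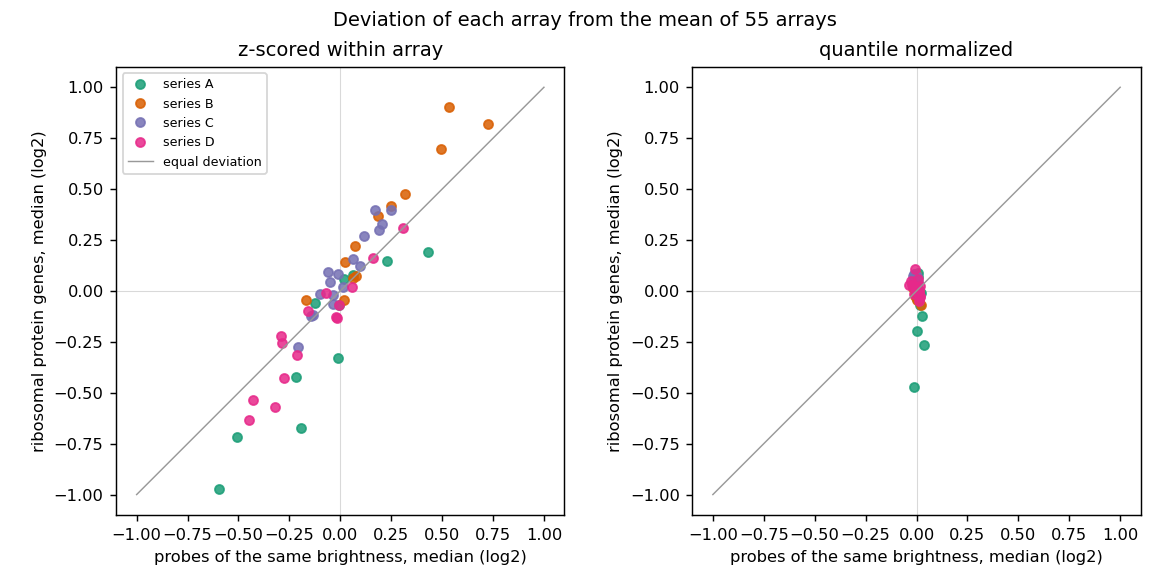
Each point is 1 of 55 arrays, with the median deviation of 664 other probes of the same brightness on the horizontal axis and that of the 77 ribosomal protein genes on the vertical axis (log2), on the z scale at left and after quantile normalization at right; the line marks equal deviations and the colours the series. At left the arrays lie along the line (r = 0.93), and at right the other probes stay between -0.04 and 0.04 while a few arrays of the members reach down to -0.47.

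The comparison of each protocol with sham at the same time asked whether stimulation moved these mRNAs. No member passed the test at any time in either arm (limma, 2-sided, Benjamini-Hochberg over all 35688 tested probes, adjusted p under 0.05). Of all probes, 0% were called at 0, 24 and 48 h of 1 Hz, 0.0056% at 2 h and 0.0028% at 8 h, and 0% at 0, 2, 24 and 48 h of iTBS and 0.0056% at 8 h. Both arms were compared with the same sham arrays at each time. At an unadjusted p under 0.05 the counts were 0, 0, 1 (lower), 16 (lower) and 0 for 1 Hz from 0 to 48 h, and 53 (higher), 18 (higher), 0, 0 and 0 for iTBS. The 1 at 8 h of 1 Hz stands beside 0.661% of all probes lower.

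Right after iTBS most members had higher values than in sham. The large stalk protein Rplp0 read 11.18, 10.95, 10.99 and 10.74 in the sham arrays at 0 h, 12.15, 11.62, 11.51 and 11.60 after iTBS, 11.44, 11.59 and 11.28 after 1 Hz, and 10.12, 10.71, 10.86 and 11.76 in untreated cultures. All iTBS and all 1 Hz arrays thus lay above all sham arrays, while the untreated arrays spanned both. The untreated arrays came from series A and C only, and the 1 Hz arrays from B, C and D. Rps27, a zinc-finger protein of the small subunit, read 10.06, 9.71, 9.93 and 9.57 in sham and 11.43, 10.57, 10.19 and 10.48 after iTBS, which again did not overlap. Its difference of 0.85 ± 0.30 (SE) had the smallest p among members and did not pass (limma, adjusted p = 1.00). With the series as a block its adjusted p was 0.273, the lowest of any member.

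Rps6, the substrate of S6 kinase through which mTORC1 acts on the ribosome, had 8.87, 8.90, 9.07 and 8.77 in sham at 0 h and 9.60, 9.43, 8.93 and 9.31 after iTBS, and these overlapped. At 0 h 74 of 77 members were higher after iTBS, with a median difference of 0.62, against 0.39 for the other probes of the same brightness and 0.02 for the members after quantile normalization. The 53 members with an unadjusted p under 0.05 stand against 2.47% of all probes in that direction, and 70 against 5.28% with the series as a block. Scaling to the 75th percentile gave a median of 0.30, and it moved the median of all probes in this comparison from -0.05 to 0.07.

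At 2 h of iTBS the pattern recurred at a smaller size, with 75 of 77 members higher and a median of 0.50, against 0.36 for probes of the same brightness and 0.00 for the members after quantile normalization. Rpl27a, a large-subunit protein, had 9.96, 10.04, 9.81 and 9.76 in sham and 10.53, 10.23, 10.41 and 10.29 after iTBS. These did not overlap, yet the difference of 0.47 ± 0.19 (SE) did not pass (limma, adjusted p = 1.00; 0.807 with the series as a block, the lowest of any member) and was -0.05 after quantile normalization. The 18 members with an unadjusted p under 0.05 stand against 1.03% of all probes, and 60 against 3.19% with the series as a block.

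Each series gave 1 iTBS and 1 sham array at 0 and 2 h. The member median of iTBS minus sham at 0 h was 0.41 in A, 0.95 in B, 0.46 in C and 0.74 in D, and at 2 h 0.86, 0.46, 0.14 and 0.50. It was above 0 in all 4 series at both times. The other probes of the same brightness gave 0.07, 0.70, 0.29 and 0.59 at 0 h and 0.63, 0.23, 0.13 and 0.32 at 2 h, all above 0 too and all below the members. After quantile normalization the members gave 0.06, -0.02, 0.01 and 0.00 at 0 h and 0.21, -0.02, -0.03 and 0.03 at 2 h. The iTBS array was dimmer than its sham array in 7 of these 8 pairs, with 75th percentile ratios of 0.61, 0.61 and 0.50 in B, C and D at 0 h and 0.30, 0.50, 0.84 and 0.69 in A to D at 2 h, and was 1.04 times as bright in A at 0 h.

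Later iTBS times showed nothing that passed, and their medians changed sign or vanished with the scaling: -0.32 at 8 h (0.01 after quantile normalization), -0.32 at 24 h (-0.01) and 0.17 at 48 h (-0.01). The other probes of the same brightness gave -0.24, -0.21 and 0.14 on the z scale. The members with the smallest p at these times were Rpl27a at 8 h (-0.37 ± 0.22), Rps4x, the X-linked small-subunit protein, at 24 h (-0.28 ± 0.18), and Rps15 at 48 h (0.50 ± 0.25), each with an adjusted p of 1.00 (limma).

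After 1 Hz the member medians were 0.35, 0.26, -0.13, -0.51 and -0.14 from 0 to 48 h. The other bright probes gave 0.23, 0.13, -0.06, -0.40 and -0.10, and quantile normalization left 0.05, 0.07, -0.04, -0.04 and 0.03. Rpl5, which joins Rpl11 and the smallest ribosomal RNA in a particle that also restrains Mdm2, had 9.92, 9.50, 10.04 and 9.64 in sham at 0 h and 10.21, 10.37 and 9.97 after 1 Hz (0.41 ± 0.25, limma, adjusted p = 1.00), with overlap. The 24 h point was the lowest: Rpl10, a late-joining large-subunit protein with an X-linked gene, had 9.71, 9.29 and 9.52 in sham, 8.77, 9.01 and 8.86 after 1 Hz, and 9.34, 9.15 and 9.17 after iTBS. All 3 arrays of 1 Hz lay below all of sham, and the difference of -0.63 ± 0.20 did not pass (limma, unadjusted p = 0.0036, adjusted p = 1.00). The 16 members with an unadjusted p under 0.05 at this time stand against 1.12% of all probes lower. The 1 Hz arrays at 24 h came from series A, C and D and the sham arrays from B, C and D, so differences between series enter this comparison. Within C and within D, with 1 array of each arm, the member median of 1 Hz minus sham was -0.31 and -0.44. Its sign differed between series at 2 h, where the 1 Hz arrays came from C and D only, with -0.10 in C and 0.59 in D. The sign differed at 48 h too, with -1.03 in A, 0.16 in C and -0.21 in D. The 1 Hz array of A at 48 h had the highest 75th percentile signal of all arrays (18416). In B, C and D the values were 0.27, 0.39 and 0.30 at 0 h and -0.30, -0.07 and -0.29 at 8 h.

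At 48 h of 1 Hz the smallest p belonged to Rpl27 (0.34 ± 0.19, limma, adjusted p = 1.00). At 2 h it belonged to the pseudogene Rps4x-ps1, which no array of either group held above background, so no difference is given for it.

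**Figure D3:**
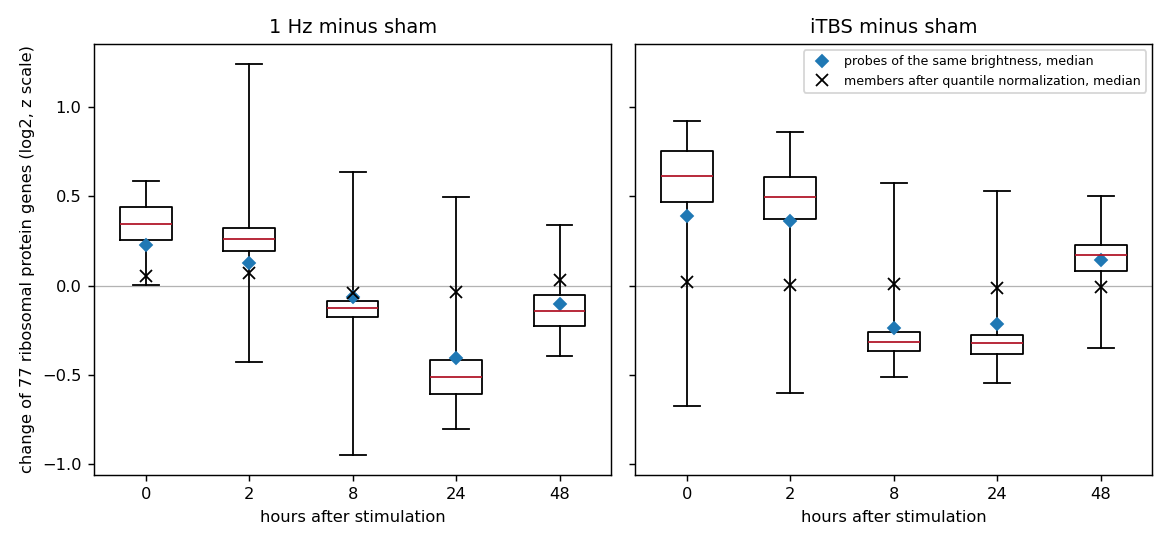
Difference from sham (log2) of the 77 ribosomal protein genes after 1 Hz and iTBS at each time; the box spans the quartiles, the line in it is the median, the whiskers run from the lowest to the highest member, the diamond is the median of 664 other probes of the same brightness, and the cross is the members' median after quantile normalization. The diamonds follow the boxes at every time, from 0.39 beside 0.62 at 0 h of iTBS to -0.40 beside -0.51 at 24 h of 1 Hz, and the crosses lie between -0.04 and 0.07.

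Between untreated and sham cultures at 0 h no member passed, and 0.0028% of all probes were called. The untreated arrays were 2 of series A and 2 of series C, and the sham arrays 1 of each series, so differences between series enter this comparison. The member median was -0.08 (-0.06 for probes of the same brightness, 0.03 after quantile normalization), no member had an unadjusted p under 0.05, and Rps4y2 had the smallest p (-0.24 ± 0.34, limma, adjusted p = 1.00). When iTBS was compared directly with 1 Hz, no member passed at any time either, beside 0% of all probes at 0, 24 and 48 h, 0.0056% at 2 h and 0.0028% at 8 h. The medians of iTBS minus 1 Hz were 0.27, 0.22, -0.18, 0.19 and 0.30 from 0 to 48 h, beside 0.20, 0.22, -0.19, 0.17 and 0.26 for the probes of the same brightness. Quantile normalization left -0.02, -0.07, 0.05, 0.02 and -0.05, so the sign turned at every time but 24 h. At an unadjusted p under 0.05, 1 member was lower after iTBS at 0 h and 3 were higher at 48 h, beside 0.65% and 1.7% of all probes in those directions, and none at the other times. In these comparisons the smallest p belonged to Rpl3l (-0.99 ± 0.40), Rpl10 (0.34 ± 0.20) and Rps15 (0.51 ± 0.23) at 0, 24 and 48 h, each with an adjusted p of 1.00 (limma). At 2 h it belonged to Rps4x-ps1, again below background on all arrays of both groups.

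The study's own limits on the size of a difference, a z-ratio over 1.5 with a mean z-score above 0, gave other counts without a test. For iTBS 40, 32, 0, 2 and 0 members passed them from 0 to 48 h, beside 2.8%, 2.26%, 0.462%, 0.555% and 2.08% of all probes. The 40 and 32 were all higher and the 2 lower. For 1 Hz 3 (higher), 0, 2 (lower), 19 (lower) and 0 members passed, beside 1.68%, 1.81%, 2.59%, 2.15% and 2.89% of all probes. These are sizes on the z scale, on which the other bright probes moved the same way, and nothing further is read from them.

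Over time after the session, which is also the age of the culture, few members passed the test. Late times (24 and 48 h, 20 arrays) minus early times (0 and 2 h, 21 arrays), averaged over sham, 1 Hz and iTBS, gave a member median of 0.02, against -0.07 for the probes of the same brightness and 0.07 for the members after quantile normalization. One member of 77 rose and none fell, where 8.89% of all probes rose and 7.09% fell, and no member passed the test of any time difference, where 8.16% of all probes did. At an unadjusted p under 0.05 that count was 1 member, beside 21% of all probes. The 1 member called as rising was the pseudogene Rps4x-ps1. It was above background on 0 of the 21 early arrays and on 5 of the 20 late ones, all of them series D, and it passed the filter on dim probes only through those 5, so no size is given for it and nothing is read from the call.

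With the series as a block 3 members rose, beside 15.9% of all probes. They were Rps27l (0.34 ± 0.09, limma, adjusted p = 0.0028), Rpl23a (0.17 ± 0.06, adjusted p = 0.034), which stands at the exit of the peptide tunnel, and Rps4x-ps1, with the limit just given. With quantile normalization and that block, 17 rose and 1 fell, beside 16.7% and 16.6% of all probes. Those that rose included Rps27l (0.35), Rpl23a (0.25), Rps6 (0.17), Rpl12 (0.16), Rpl10 (0.14) and Rplp0 (0.09), and the 1 that fell was Rps2 (-0.12), a small-subunit protein near the mRNA entry site. The rise of Rps27l was of about the same size on both scales.

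The member medians of late minus early lay apart between the arms on the z scale, although no member passed the test of that difference. Looking at sham alone was added after its values were seen. There the member median of late minus early was 0.45, while it was -0.20 in 1 Hz and -0.20 in iTBS, and after quantile normalization all 3 were above 0, at 0.10, 0.05 and 0.08. The other probes of the same brightness gave 0.23, -0.22 and -0.21 on the z scale. The 1 Hz groups at 0 and 2 h held 0 arrays of series A, and those at 24 and 48 h held 1 each. Differences between series thus enter the 1 Hz value. No member passed in sham, 44 with an unadjusted p under 0.05 were higher, beside 7.22% of all probes, and with the series as a block 38 rose, beside 5.57% of all probes. With the block and 75th percentile scaling 11 rose, beside 6.46%, and with the block and quantile normalization 4 rose, beside 5.76%, and 1 fell, beside 5.24%.

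Rps27l had the smallest p in sham with the block (0.72 ± 0.15, limma, adjusted p = 0.0016). Its sham arrays read 7.47, 6.61, 7.45 and 6.24 at 0 h, 7.32, 7.39, 6.19 and 6.20 at 2 h, 8.81, 7.99 and 6.73 at 24 h, and 7.34, 7.42 and 6.78 at 48 h. The lowest array was of series D at 0, 24 and 48 h and of series A at 2 h, where the D array had 6.20, and the early and late groups overlapped. The difference between arms in this time effect was tested and no member passed, with medians of -0.63 for 1 Hz minus sham and -0.61 for iTBS minus sham, beside -0.42 and -0.43 for the probes of the same brightness. This contrast is built from the differences from sham at 0, 2, 24 and 48 h given above. It shares its sham arrays with them and with the rise in sham, so these are not separate observations. For 1 Hz the contrast also sets early arrays without series A against late arrays that include it. At an unadjusted p under 0.05, 40 and 46 members were lower, beside 1.72% and 3.17% of all probes. Quantile normalization left -0.06 and -0.01.

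Genes around the ribosome were read from fixed lists. Of 31 ribosome biogenesis factors, 13 fell from early to late times, led by Gar1, a core protein of the pseudouridylation particles, and Rrs1, which brings Rpl5 and Rpl11 to the precursor, and 1 rose, Sbds, which frees the finished large subunit for joining (list median -0.22). Of 14 genes of RNA polymerase I and its factors 2 fell, Polr1g and Polr1f. Of 24 genes of the mTORC1 pathway 1 rose, Pdcd4, a brake on the initiation helicase, and of 21 other mRNAs with a TOP element or translation factors none passed (median 0.01). Of the cell type markers, 5 of 9 of astrocytes rose, led by Gfap and Aqp4, and 3 of 12 of neurons fell, led by Tubb3 and Map2. Their part in the members' values was not tested.

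Far more members passed the test between series than between arms, and the series comparisons had more arrays on each side. On the z scale the largest member median was not larger between series than between arms. In the fit with group and series, 74 of 77 members differed between series, beside 75.4% of all probes. The 3 that did not pass were Rpl17, Rpl12 and Rpl6, which were also the 3 with the smallest spread within groups. The median over members per array lay at 9.02, 9.92 and 10.18 (lowest, median, highest) in A, 9.94, 10.28 and 10.89 in B, 9.71, 10.07 and 10.39 in C, and 9.36, 9.85 and 10.30 in D.

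Series A lay below series B. Rplp0 had 9.53, 10.99 and 12.18 (lowest, median, highest) in A, 11.15, 11.71 and 12.49 in B, 10.86, 11.31 and 11.76 in C, and 10.36, 11.11 and 11.78 in D, with overlap between all of them. Rps20, a small-subunit protein of the head, had 9.18, 10.16 and 11.38 in A, 10.55, 11.13 and 11.89 in B, 10.23, 10.67 and 11.21 in C, and 9.73, 10.38 and 11 in D. In A minus B 70 members were lower and 1 was higher, beside 13.7% and 16.7% of all probes, with a median of -0.53.

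Of the other probes of the same brightness 302 of 664 were lower in A and 9 higher, with a median of -0.28. Quantile normalization left 27 members lower and 2 higher, beside 13.6% and 16.3% of all probes, and a median of -0.12, against -0.01 for the other bright probes. The largest differences included those of Rps25 (-1.08 ± 0.24) and Rps20 (-0.79 ± 0.18), both passing in limma. By role, the differences were -0.63, -0.70 and -0.49 for the stalk proteins Rplp0, Rplp1 and Rplp2, -0.47 and -0.38 for Rpl5 and Rpl11, -0.36 for Rps6, -0.60 for Rps27a, which is made as a fusion with ubiquitin, and -0.47 for Rpl13a, which also blocks translation of some mRNAs when released. Members with a paralogue differed by -0.26 (Rpl3), -0.68 (Rpl39), -0.68 (Rps27) and -0.67 (Rpl36a), and the brightest member, Rpl41, by -0.65. The only member called higher in A was Rpl3l (0.78 ± 0.20), whose levels were -2.16, -1.83 and -0.52 in A and -3.59, -2.42 and -1.48 in B, above background on all 11 arrays of A and on 5 of 12 of B.

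Series A and B share no slide and are linked only through the D arrays on their slides. With slide added to the fit of series A against B, 0 members were called and 157 of all probes were, so series and slide cannot be told apart for this difference. Without 3 arrays of series A described below, quantile normalization gave 26 member calls in place of 29.

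Series D differed from the mean of the other 3 by a median of -0.30, with 59 members lower and 3 higher, beside 24.2% and 28.9% of all probes. The other probes of the same brightness had 372 of 664 lower and 30 higher, with a median of -0.24. After quantile normalization 15 members were lower and 11 higher, beside 25.4% and 27.8% of all probes, and the median was -0.02, so the general lowering was not seen on that scale. Single members stood apart on both scales.

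Rps27l was the clearest of these. It had 6.20, 6.65 and 7.03 in D, 7.32, 7.83 and 8.81 in B, 7.39, 7.57 and 7.99 in C, and 6.19, 7.01 and 8.06 in A. All 15 arrays of D lay below all of B and C and overlapped those of A. The difference was -0.94 ± 0.09 (limma, adjusted p = 6.1e-12) and -0.80 after quantile normalization, while its paralogue Rps27 differed by -0.28.

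Rpl22, which has a paralogue of its own and binds RNA outside the ribosome, had 8.22, 8.87 and 9.32 in D, 8.30, 8.96 and 9.72 in A, 9.08, 9.55 and 10.10 in B and 8.96, 9.28 and 9.77 in C, a difference of -0.54 ± 0.09 (-0.33 after quantile normalization). Rpl18, one of the members without a pyrimidine run at its annotated start, had 8.74, 9.21 and 9.60 in D, 8.70, 9.53 and 9.87 in A, 9.41, 9.85 and 10.47 in B and 9.12, 9.63 and 10.05 in C (-0.53 ± 0.08, and -0.27 after quantile normalization). Both overlapped the other series, and both passed in limma.

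By role, the differences of D were -0.30, -0.36 and -0.29 for Rplp0, Rplp1 and Rplp2, -0.25 and -0.32 for Rpl5 and Rpl11, -0.21 for Rps6 and -0.39 for Rps27a, and all of these passed in limma, while Rpl13a (-0.21) did not.

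Higher in D were Rps4y2 (0.74 ± 0.09, limma, adjusted p = 9.5e-09), Rpl10 (0.20 ± 0.07, adjusted p = 0.0118) and Rps4x-ps1. Rps4y2 had -0.51, 0.33 and 0.75 in D against -0.80, -0.57 and 0.40 in A, -1.37, -0.63 and -0.11 in B and -0.77, -0.27 and 0.17 in C. Rpl10 had 8.86, 9.39 and 9.84 in D against 8.74, 8.95 and 9.47 in A, 8.77, 9.19 and 9.98 in B and 8.90, 9.11 and 9.37 in C. Its difference was 0.44 after quantile normalization, opposite to most members of its subunit on the z scale. Rps4x, another member with an X-linked gene, did not pass (0.03). Rps4x-ps1 was above background on 5 of 15 arrays of D and on none of the other series, and since it was tested only through these arrays its call is counted and no size is given.

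Series C differed from A and B in few members. On the z scale 3 were higher, Rps4y2 (0.29), Rpl28 (0.17) and Rps6 (0.15, limma, adjusted p = 0.049), and 0 lower, beside 20.3% and 19.8% of all probes, and 8 were higher at an unadjusted p under 0.05, beside 23.4%. The call of Rps6 was lost in 41 of 66 alternatives, with adjusted p-values up to 0.30. After quantile normalization 28 were higher and 1, Rps2, lower, beside 21.2% and 21% of all probes, with a median of 0.11 where the z scale had 0.04. The probes of the same brightness had medians of 0.03 and 0.00 on these scales. Rpl28, a large-subunit protein, had 7.05, 7.18 and 7.37 in C, 6.63, 6.83 and 7.35 in A and 6.73, 7.14 and 7.64 in B, which overlapped.

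**Figure D4:**
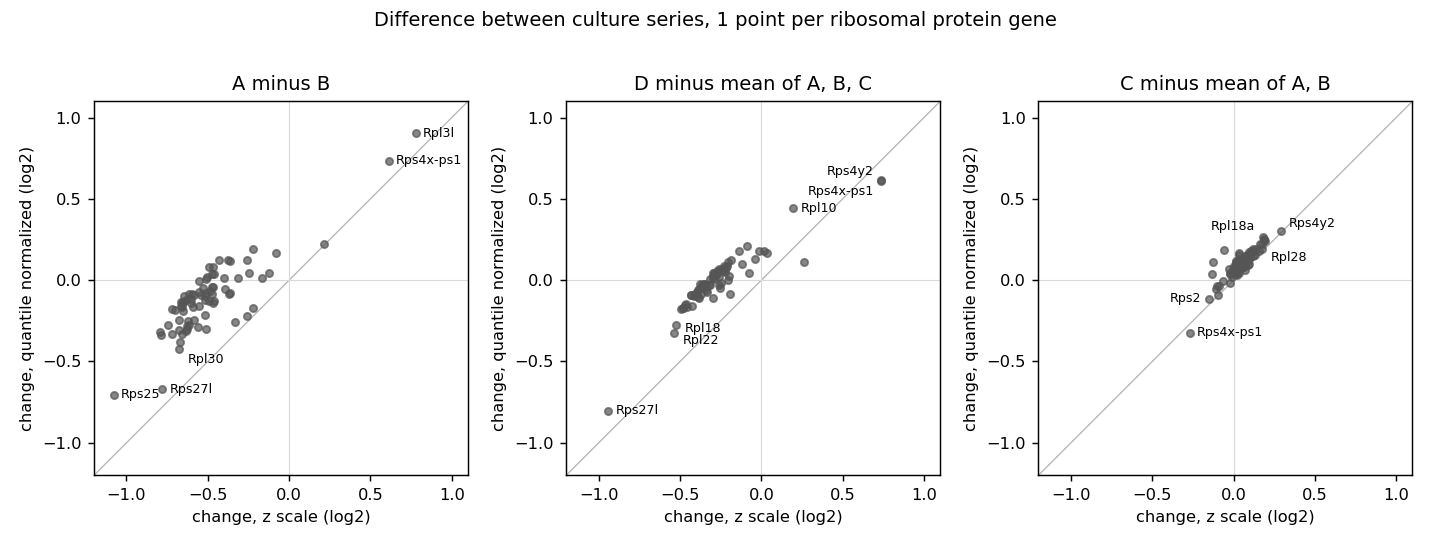
Difference between series (log2) of each of the 77 tested ribosomal protein genes on the z scale (horizontal) and after quantile normalization (vertical), for A minus B, D minus the mean of A, B and C, and C minus the mean of A and B; the diagonal marks equal values. In the first 2 panels most points lie left of 0 on the z scale (medians -0.53 and -0.30) and near 0 after quantile normalization (-0.12 and -0.02), while Rps27l lies far from 0 on both axes, at -0.94 and -0.80 in D.

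The cell makeup read from marker lists differed between the series as well. In D 8 of 9 oligodendrocyte lineage markers were lower (median -2.41, led by Mbp and Sox10) and 7 of 7 dividing-cell markers too (-2.08, Cdk1 and Cenpf), while 9 of 12 neuron markers (0.41, Gad1 and Gad2) and 7 of 9 vascular and fibroblast markers (1.05, Col3a1 and Col1a1) were higher. The log2 of the summed oligodendrocyte markers was 7.19 to 9.08 in D and 9.61 to 11.42 over A, B and C, and that of the dividing-cell markers was 4.80 to 6.50 in D and 6.88 to 8.67 over A, B and C. Astrocyte markers split, with 3 higher and 4 lower of 9, as did those of microglia, with 4 higher and 2 lower of 8, and of choroid plexus, with 2 higher and 1 lower of 4.

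In A against B 7 of 12 neuron markers were higher (0.42), and 4 of 9 oligodendrocyte (-0.89), 4 of 9 astrocyte and 3 of 4 choroid plexus markers (-1.95) were lower. In C against A and B 7 neuron markers were lower and 5 of 9 oligodendrocyte markers higher. All 12 neuron markers were above background on arrays of every series, and 1 choroid plexus marker, on no array, was not tested. The part of cell makeup in the members' differences was not tested. Of 21 other mRNAs with a TOP element or translation factors, 12 were lower in D (median -0.25, Hnrnpa1 and Eif3e), beside 24.2% of all probes. In A against B 8 were lower (-0.16, led by Rpsa), beside 13.7% of all probes. On the z scale the other probes of the members' brightness were lower in both comparisons too, so this direction was not particular to TOP mRNAs.

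A member median over 2 SD below the mean of all arrays after quantile normalization was found on 3 arrays, all of series A: sham 2 h replicate 3 (-0.47), iTBS 2 h replicate 3 (-0.26) and 1 Hz 8 h replicate 1 (-0.20). In them 65, 74 and 58 of 77 members lay below their median over arrays. Their 75th percentile signals were 6239, 1896 and 2986, of which 1896 was the lowest of all arrays. Rplp0 on this scale, in log2 signal, had 18.03, 18.09, 17.69 and 17.98 in sham at 2 h, 18, 18, 17.72 and 18.06 after iTBS, and 17.83, 17.88, 18.09 and 17.98 at 8 h of 1 Hz, so that the array concerned was the lowest of its group in each.

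On the same 3 arrays the neuron markers lay above their medians (0.82, 0.52 and 0.21, with 1, 1 and 3 of 12 below), the oligodendrocyte markers below (-0.78, -0.77 and -0.92) and the microglia markers above (0.93, 1.59 and 1.02). Of the other TOP mRNAs 14, 16 and 13 of 21 lay below (medians -0.12, -0.17 and -0.09). The other lists around the ribosome did not all go this way. Below were 16, 13 and 5 of 31 ribosome biogenesis factors (medians -0.03, 0.09 and 0.40). The same held for 8, 6 and 0 of 14 RNA polymerase I genes and 12, 10 and 8 of 24 mTORC1 genes. The part of cell makeup was not tested here either. Leaving the 3 arrays out left the number of member calls in both arms at 0.

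The array of 1 Hz at 8 h, replicate 1, also held a value that the gene's other probe did not share. Its brightest Rps25 probe read 6.44 where the median over arrays was 9.53, while the second Rps25 probe read 9.70, which is 0.39 above its own median of 9.31. The low value therefore belonged to 1 probe and not to both probes of the gene. The brightest Rps25 probe also read 7.68 on iTBS 0 h replicate 4, where the second probe read 9.46 and so was not low either. Without the 1 Hz array the difference of A from B was -0.79 for Rps25, where with it it was -1.08.

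**Figure D5:**
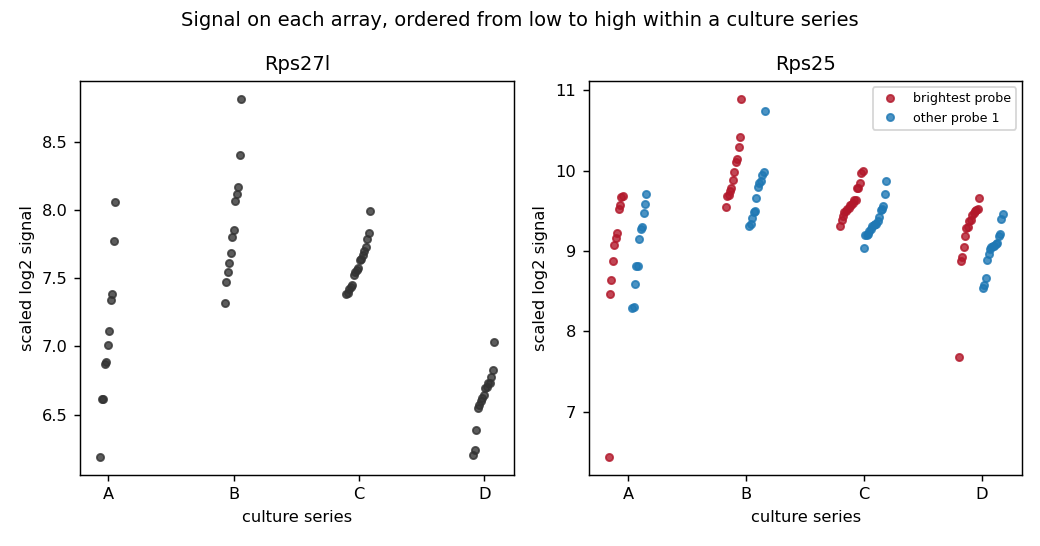
Scaled log2 signal of Rps27l and of 2 probes of Rps25 on each array, by series A to D, with the arrays of a series ordered from low to high. For Rps27l the 15 arrays of series D (6.20 to 7.03) lie below those of B and C, and for Rps25 the lowest point of series A (6.44) is seen in the brightest probe and not in the other.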

How the data were processed

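RNA of rat hippocampal cultures was labelled with Cy3 and hybridised to 56 Agilent one-colour arrays of 45598 gene probes. The authors extracted spot intensity with Feature Extraction 12.0.3.1, and the deposited processed signal intensity is background-corrected but not scaled between arrays. The score values deposited by the authors in the value table are z-scores, which matched z-scores of log10 processed signal within each array to 0.005 and were used as an alternative. The array build is rn4. Probes were named through RefSeq accessions.

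Processed signals were averaged per probe, log2 transformed, turned into z-scores within each array as in the study's methods, and multiplied by the median array SD (4.06). Of 45178 probes with values on all arrays (420 were dropped), 35688 above background on at least 3 arrays were tested with lmFit and eBayes (limma 3.58.1, R 4.3.3, data.table version 1.17.8; 39 residual and 2.82 prior degrees of freedom), 2-sided, with Benjamini-Hochberg adjustment and a threshold of 0.05. Between 66.1% and 81.8% of probes were above background per array and none was saturated. For arrays, their number per group limits the precision. Tables and figures used Python 3.11.15, pandas 2.3.3 and matplotlib 3.10.9. The model was also tested on simulated data.

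Members and gene lists were chosen with earlier results of these data known. Named genes were those with a set role (stalk, the Rpl5 and Rpl11 particle, Rps6, X-linked, ubiquitin fusion, paralogue pairs), the 3 brightest and 3 dimmest, the 3 largest rises and falls that passed in a comparison or else the smallest p, up to 2 passing genes per list, and the members of widest and narrowest spread. Alternatives were 75th percentile scaling, quantile normalization, normexp (offset 50, on the median signal because the files hold no mean signal), the deposited z-scores, series, slide and replicate blocks, all 56 arrays, the mean of a gene's probes, and leaving out each array. The fit without 3 low arrays and quantile normalization combined with a series block were added after seeing the data. Results of 1 member and of 1 gene of another list are not reported here by name, and both stay in the counts.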

Additional observations from a re-analysis of the deposited data

Results flagged for a closer look

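In 8 groups of 4 arrays, 11 measures of the members were searched for an array that stood apart from the other 3, by the gap to its nearest neighbour over the range of the group (limit 0.829). This made 88 tests, 5 of which passed the limit, and chance passes about 1 in 20 groups. The member median after quantile normalization was -0.47 on sham 2 h replicate 3, where the nearest array of the group had 0.01 (gap share 0.929). Rplp0 was 12.49 on iTBS 48 h replicate 2, beside 11.19 (0.865). Rpl10 was 9.16 on sham 2 h replicate 4, beside 8.96 (0.960), and this array is of series D, in which Rpl10 was higher. On 1 Hz 8 h replicate 1 the brightest probe of Rps25 was low (6.44, beside 9.37, 0.888), and the other probe of the gene was not. Rps4y2 was 0.53 on iTBS 0 h replicate 4, beside -0.68 (0.933), and this array is of series D, in which Rps4y2 was higher.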

How the results depend on the processing

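No member was called in either arm, in untreated against sham or in iTBS against 1 Hz under 75th percentile scaling, quantile normalization, normexp, the deposited z-scores, or series, slide and replicate blocks, or without any 1 array (0 to 0). With all 56 arrays the misplaced array gave 59 calls for 1 Hz against sham and 61 for iTBS against 1 Hz, and late against early times, any series difference, D against the rest, C against A and B and A against B gave 0, 11, 3, 1 and 9. The study's limits on size gave 24 for 1 Hz and 74 for iTBS. Late against early times (1 member) gave 2 with 75th percentile scaling, 5 with quantile normalization, 5 with normexp, 0 with a slide block or slide and series blocks, 3 with a series block and 18 with quantile normalization and a series block. Any time difference (0) gave 1 with normexp, 1 with slide and series blocks, 2 with a series block and 7 with quantile normalization and a series block. The replicate numbers did not pair the samples (mean correlation of residuals 0.16 for the same number, lowest -0.46, and -0.06 for other numbers; 0.40 within and -0.13 between series), and the replicate block gave 1 call for any time difference and changed no other count by over 1.5 times. Series D against the rest (62) gave 26 with quantile normalization, 26 with normexp and 31 with quantile normalization without the 3 low arrays. Series C against A and B (3) gave 31 with 75th percentile scaling, 29 with quantile normalization, 36 with normexp, 6 with the deposited z-scores, 5 with the mean of a gene's probes, 7 without the 3 low arrays and 32 without them after quantile normalization. Series A against B (71) gave 29 with quantile normalization, 31 with normexp, 26 with quantile normalization without the 3 low arrays, and 0 with a slide block, with or without series. The member median minus that of probes of the same brightness was 0.23 at 0 h of iTBS and became 0.041 with quantile normalization and 0.066 with normexp, and for A minus B it was -0.25 and became -0.082 with normexp. Leaving out 1 array in turn gave 0 to 1 for late against early times (0 without sham 24 h replicate 3, sham 48 h replicate 3, 1 Hz 0 h replicate 2, 1 Hz 2 h replicate 1, 1 Hz 24 h replicate 1 or 3, or iTBS 24 h replicate 3), 0 to 1 for any time difference (1 without sham 48 h replicate 2, 1 Hz 24 h replicate 2 or iTBS 48 h replicate 3), 74 to 75 for any series difference, 54 to 67 for D, 2 to 6 for C and 64 to 71 for A against B. Reversed values were those of Rpl27a at 2 h of iTBS (-0.0501 with quantile normalization, alone or with a series block, and -0.033 with normexp) and Rpl28 in C (-0.031 with the mean of its probes). The cause of these shifts was not tested. The number of arrays per group, 2 to 4, limits what the comparisons of arms could show, and Rps7-ps20, Rps4x-ps1 and Rpl3l were above background on 0, 5 and 42 of 55 arrays.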
